A study of Mus musculus with 2 samples.

Results

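Forkhead (FOX) genes encode transcription factors that share a winged-helix DNA-binding domain, the forkhead domain. The members described here are the 43 protein-coding genes of the GENCODE M21 mouse annotation (genome build mm10) whose symbols run from Foxa to Foxs, out of 21938 protein-coding genes in all, and Foxo3 was not included. ChIP-seq for H3K4me3, the trimethylated form of histone H3 lysine 4 that is typical of promoters, was run on 2 libraries of the MEL line. MEL is an immortalized mouse erythroleukaemia line that the labels describe as an analogue of the human K562 line, and no treatment or second condition is named. The 2 libraries are numbered as biological replicates 1 and 2 of 1 group, but both carry 1 cell sample in their labels, so their spread may be technical. Age and sex of the source are given as unknown or not collected.

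The measurements were 4 peak lists of the authors, for replicate 1, replicate 2, the pool of both and the replicated peaks. Marked genes were those with a replicated peak no more than 1000 bp from at least 1 annotated transcription start site (TSS), and such a peak is called a TSS peak. The peak signal value is the authors' score for each peak. The sources used here do not define it, and it was read only within a list. The lists hold no read counts, so depth is unknown, and the absence of a peak may reflect a lack of reads. A peak list gives positions of the mark and not RNA levels.

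Forkhead factors are named by subfamily letter. FOXA factors open chromatin in the endoderm and liver, and FOXC, FOXD and FOXF factors pattern mesoderm and mesenchyme. FOXO factors are driven out of the nucleus by AKT, the kinase below insulin and cytokine receptors, FOXM1 switches on genes of mitosis, FOXK factors act in nutrient sensing, and FOXP factors are repressors that work as dimers. In developing red cells, FOXO factors are known for the control of oxidative stress, and erythropoietin signalling acts on them through AKT.

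The promoters that carry the main contrast are shown here, since promoters dense in CpG dinucleotides occur among both marked and unmarked members. They are RefSeq promoters on GRCm38.p6, the build of mm10, from 250 bases before to 50 after a RefSeq start, read 5′ to 3′ along the gene, with each CpG in capitals. Of the 43 genes, 27 matched by symbol, with 32 promoters. Foxk2 (chr11:121259737-121260036, plus strand) and Foxo1 (chr3:52268087-52268386, plus strand) are from subfamilies in which every gene described here was marked. Their promoters were added after their values had been seen. In the replicated list Foxd2 (chr4:114908849-114909148, minus strand) had the lowest signal value of the marked genes with a RefSeq entry, Foxp1 (chr6:99520944-99521243, minus strand) the highest and Foxn3 (chr12:99450025-99450324, minus strand) the widest domain. Where a gene had several RefSeq starts, the one nearest the summit of its strongest TSS peak is printed.
Foxk2: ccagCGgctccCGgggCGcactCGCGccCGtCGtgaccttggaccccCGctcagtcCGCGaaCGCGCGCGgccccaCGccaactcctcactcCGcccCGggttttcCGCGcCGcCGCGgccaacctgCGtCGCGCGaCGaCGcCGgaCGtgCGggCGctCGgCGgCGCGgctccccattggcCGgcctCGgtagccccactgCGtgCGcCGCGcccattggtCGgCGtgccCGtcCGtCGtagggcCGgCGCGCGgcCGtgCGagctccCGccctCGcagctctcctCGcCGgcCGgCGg
Foxo1: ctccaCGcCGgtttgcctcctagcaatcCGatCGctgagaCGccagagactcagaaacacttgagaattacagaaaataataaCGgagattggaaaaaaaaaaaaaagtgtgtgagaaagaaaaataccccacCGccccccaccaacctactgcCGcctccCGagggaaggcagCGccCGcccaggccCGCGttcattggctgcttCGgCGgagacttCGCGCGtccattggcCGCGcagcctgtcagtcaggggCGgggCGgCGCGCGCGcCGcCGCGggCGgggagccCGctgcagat
Foxd2: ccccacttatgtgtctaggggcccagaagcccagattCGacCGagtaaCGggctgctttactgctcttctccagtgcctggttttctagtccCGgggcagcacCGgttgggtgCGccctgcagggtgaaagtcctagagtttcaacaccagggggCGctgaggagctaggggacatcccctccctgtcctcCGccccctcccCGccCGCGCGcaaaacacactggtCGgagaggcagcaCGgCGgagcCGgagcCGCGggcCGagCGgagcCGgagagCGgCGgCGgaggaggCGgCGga
Foxp1: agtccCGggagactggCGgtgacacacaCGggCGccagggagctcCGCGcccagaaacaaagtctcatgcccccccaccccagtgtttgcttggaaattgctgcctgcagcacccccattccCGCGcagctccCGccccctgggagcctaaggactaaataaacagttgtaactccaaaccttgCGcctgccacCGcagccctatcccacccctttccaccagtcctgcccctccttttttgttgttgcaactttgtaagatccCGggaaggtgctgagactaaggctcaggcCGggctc
Foxn3: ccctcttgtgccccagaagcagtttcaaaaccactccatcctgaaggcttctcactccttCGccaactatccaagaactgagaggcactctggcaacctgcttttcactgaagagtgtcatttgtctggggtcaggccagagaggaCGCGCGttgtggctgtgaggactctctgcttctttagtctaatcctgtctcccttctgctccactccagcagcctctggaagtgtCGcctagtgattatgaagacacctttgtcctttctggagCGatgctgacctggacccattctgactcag

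The next promoters belong to the first 3 genes in name order, among those with a RefSeq promoter, that were classed as high-CpG and had no TSS peak. They are Foxb2 (chr19:16873781-16874080, minus strand), Foxc1 (chr13:31806396-31806695, plus strand) and Foxd1 (chr13:98353995-98354294, plus strand). The class, defined below, comes from a wider window around the GENCODE start and not from the printed bases. For Foxb2 the CpG ratio (observed over expected) was 0.66 in the wider window. It was 0.50 in the printed one, which is below the high-CpG limit. The printed windows of Foxc1 and Foxd1, with ratios of 0.94 and 0.62, were above that limit.
Foxb2: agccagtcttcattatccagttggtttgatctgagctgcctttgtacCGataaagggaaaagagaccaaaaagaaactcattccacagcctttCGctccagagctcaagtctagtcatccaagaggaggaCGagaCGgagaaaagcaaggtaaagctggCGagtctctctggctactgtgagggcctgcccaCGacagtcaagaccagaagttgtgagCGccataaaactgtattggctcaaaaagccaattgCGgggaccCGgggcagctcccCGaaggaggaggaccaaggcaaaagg
Foxc1: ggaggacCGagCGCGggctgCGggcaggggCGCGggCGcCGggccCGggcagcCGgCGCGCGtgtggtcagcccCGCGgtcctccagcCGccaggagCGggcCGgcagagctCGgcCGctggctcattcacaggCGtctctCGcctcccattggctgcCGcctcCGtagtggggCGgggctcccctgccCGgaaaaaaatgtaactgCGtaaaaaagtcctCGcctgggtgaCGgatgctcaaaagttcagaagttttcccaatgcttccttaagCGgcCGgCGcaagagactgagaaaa
Foxd1: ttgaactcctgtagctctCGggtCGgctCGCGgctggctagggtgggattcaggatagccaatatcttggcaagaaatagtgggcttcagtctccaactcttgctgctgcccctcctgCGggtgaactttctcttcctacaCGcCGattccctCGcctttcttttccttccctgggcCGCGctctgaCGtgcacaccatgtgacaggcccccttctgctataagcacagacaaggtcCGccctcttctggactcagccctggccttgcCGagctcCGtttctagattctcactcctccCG

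The number of CpGs did not separate these promoters by call. The Foxk2 promoter holds 59 CpGs and that of Foxo1 31, while Foxc1, with no TSS peak in any list, holds 32 in the same length. Foxd2 has 26, Foxd1 15, Foxp1 13 and Foxb2 10. The Foxn3 window, with 6 CpGs, is an internal start of a marked gene, and replicated peaks covered 0% of it. Replicated peaks covered 29.3% of the printed Foxk2 window, 64.3% of that of Foxo1, 54.3% of that of Foxd2 and 38% of that of Foxp1. The Foxp1 share came from a narrow peak (chr6:99521130-99521293) with a value of 4.08, which replicate 1 did not overlap. The peak that gave Foxp1 its highest value, 24.99, lay at chr6:99522786-99524201, outside the printed window.

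H3K4me3 marked a smaller share of forkhead genes than of protein-coding genes at large, a difference for which 1 group of 2 libraries allows no test. A TSS peak was present at 18 of the 43 genes (41.9%), against 50.3% of all 21938 protein-coding genes. Subfamilies differed widely. All members described here of FOXJ (3 genes), FOXK (2) and FOXO (3, Foxo3 not included) were marked. So were the only genes of FOXH and FOXM, which makes 10 genes in 5 subfamilies. No member was marked in 9 subfamilies with 16 genes, among them FOXB, FOXE, FOXF, FOXI, FOXL, FOXQ, FOXR and FOXS. Of these, FOXQ and FOXS hold 1 gene each. The other 5 subfamilies were split, with 8 of 17 genes marked: 1 of 3 in FOXA, 1 of 2 in FOXC, 1 of 4 in FOXD, 2 of 4 in FOXN and 3 of 4 in FOXP.

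Most calls did not depend on the rule. The count was 16 with a 500 bp window (49.6% of all genes), 20 with 2500 bp (51.9%) and 16 with each peak assigned to the closest TSS alone (49.6%). It was 17 with the 5'-most TSS (46.9%), 18 with TSSs of protein-coding transcripts (49.3%) and 18 with −log10 q of at least 5 (49.5%). Over 10 settings 14 members were marked in all and 23 unmarked in all. The 6 members that changed were Foxa3, Foxh1, Foxj3, Foxl1, Foxo6 and Foxp2.

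CpG content and gene structure went along with the call in part. Promoter class was taken from the sequence within 500 bp of the 5'-most TSS. A promoter counted as high-CpG from a CpG ratio (observed over expected) of 0.6 with 50% GC, as low-CpG below a ratio of 0.4, and as intermediate otherwise. Of 30 forkhead genes with a high-CpG promoter 15 were marked, where 79.8% of all 9740 high-CpG genes were. The intermediate class held 6 members with 1 marked (53% of all genes of that class), and the low class 7 with 2 marked (16.6%). The median ratio was 0.87 in marked and 0.66 in unmarked members. Among the unmarked genes, Foxc1, Foxf1 and Foxf2 had ratios of 0.94, 0.85 and 0.85, and among the marked genes, Foxj3 and Foxh1 had ratios of 0.18 and 0.29. These last 2 ratios describe starts outside every peak. The 5'-most start of Foxj3 was 1689 bp from the nearest peak, and that of Foxh1 was 993 bp from it.

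**Figure D1:**
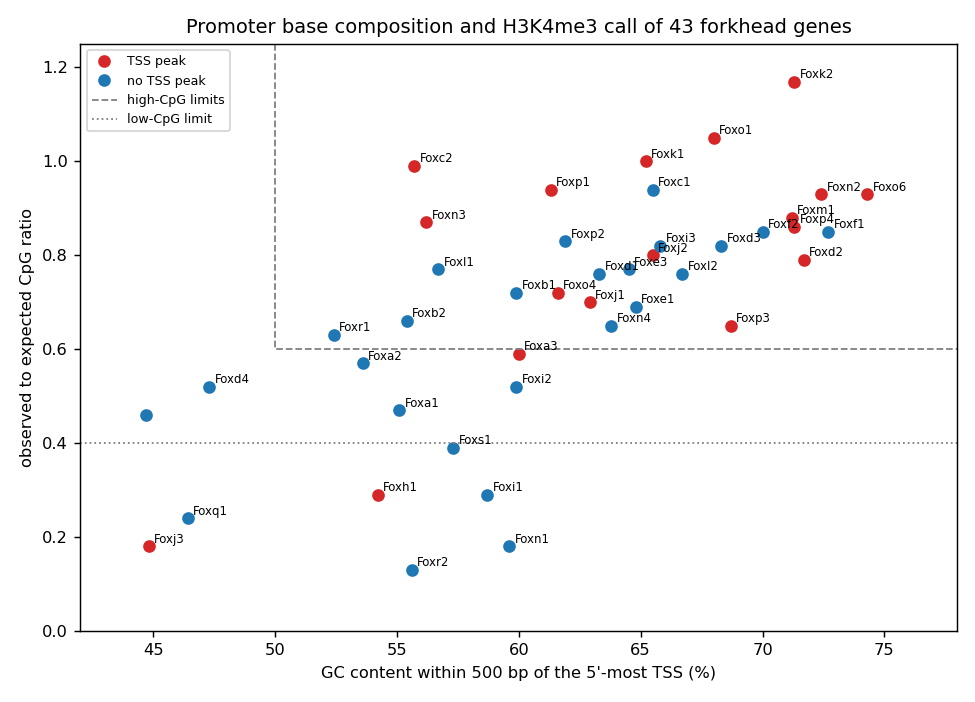
GC content (x axis, %) and observed to expected CpG ratio (y axis) within 500 bp of the 5'-most TSS of the 43 forkhead genes, with genes that have a replicated TSS peak in red and the others in blue. Of the 30 genes above the high-CpG limits 15 are red and 15 are blue, and the 2 red points in the low class are Foxj3 and Foxh1. At both of these the 5'-most TSS lies outside every replicated peak. A single blue point carries no name.

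The unmarked members were mostly short genes with few exons. Median gene length was 4093 bp in the 25 unmarked and 23527.5 bp in the 18 marked members, against 11355 and 23241 bp over all unmarked and marked protein-coding genes. Of 23 members whose protein-coding transcripts have at most 2 exons, 4 were marked (19.5% of all 3354 such genes). These were Foxa3, Foxc2, Foxd2 and Foxo6. Of 20 members with more exons, 14 were marked (55.8% of all such genes). Within the high-CpG class the shares were 3 of 15 for members with at most 2 exons (59.1% of all 776 such genes) and 12 of 15 for the others (81.6% of all 8922). The high-CpG forkhead genes with at most 2 exons thus lay below the genes of the same class and structure, and those with more exons near them. Marked members also had more annotated TSSs, a median of 3 against 1 in unmarked members. Over all protein-coding genes the medians were 5 in marked and 2 in unmarked genes. Under the rule each further TSS gives a further place for a TSS peak. Of 23 members with a single TSS 6 were marked, where 21% of all 4882 such genes were.

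Little of the promoter sequence was repeated elsewhere. In 12 of the 18 marked and 16 of the 25 unmarked promoters no 32-base word occurred a second time on the primary chromosomes and contigs, and the highest share of repeated words among unmarked promoters was 4.64%, at Foxs1. The highest in marked promoters were 21.2% at Foxj3 and 15.5% at Foxh1.

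The 3 FOXO genes described here, whose products carry the response to AKT, were all marked in the replicated list, at very different strength. Foxo1, on chromosome 3, had 3 TSS peaks in the replicated list. The strongest lay at chr3:52266763-52268271 with a signal value of 18.49, ranked 2015th of 11037 marked genes, and its summit lay at -206 bp from the start. In the replicate lists the strongest TSS peak had values of 16.03 and 16.01, and the TSS domain, made by merging peaks across gaps of up to 1000 bp, was 3235 and 3611 bp wide. Foxo4, on the X chromosome, had 2 TSS peaks and a top value of 18.1 (chrX:101254180-101255740), with 15.91 in replicate 1 and 22.13 in replicate 2, and all 3 of its TSSs lay inside a peak. The highest Foxo4 value of replicate 1 lay in the upstream peak. Foxo4 stood between the 79.7th and 85.2nd percentile of the marked genes in these 3 lists. Foxo1 stood at the 81.8th in the replicated list and the 81.0th in replicate 1, but at the 53.4th in replicate 2.

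Foxo6, a FOXO gene known for its role in the brain, had the weakest mark of the family. Its single replicated TSS peak (chr4:120286960-120287503) was 544 bp wide with a signal value of 4.335, which ranked 10816th of 11037. Replicate 2 gave 2 TSS peaks, the stronger with a signal value of 6.247 and −log10 q of 11.8, and a domain of 1023 bp. Replicate 1 listed no TSS peak there, and its nearest peak lay 4062 bp from the start. This was the only member whose call differed between the replicate lists.

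FOXK genes and FOXJ2, FOXJ3 and FOXM1, most of them active in many tissues, differed in strength. Foxk2 had 2 peaks on either side of its start, the stronger at chr11:121260178-121261811 with a value of 18.9 and a rank of 1812. Its highest values were 10.57 in replicate 1, in the upstream peak, and 24.45 in replicate 2, which put it in the 35.0th and 91.6th percentile of the marked genes of each list. Foxk1 (chr5:142401715-142402903) had 11.95, at the 34.8th percentile, with 6.979 at the 10.4th in replicate 1 and 14.78 at the 44.8th in replicate 2. Both FOXK genes thus stood lower within the replicate 1 list than within the replicate 2 list.

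Foxj2 (chr6:122818867-122821019) had the highest signal value of the family in both replicate lists, 24.85 in replicate 1 and 26.61 in replicate 2, and the third highest in the replicated list, 21.56. A pair of further TSS peaks, with values of 8.672 and 4.873, lay at the internal start at 122826675. Its rank was 838 in the replicated list, 66 in replicate 1 and 519 in replicate 2. Its domain was 2153 bp wide, below the median of 2258 bp over all marked genes, so that height and width did not go together here. Foxj3 (chr4:119539708-119541741, 18.66) was marked at 8 of its 10 TSSs. The exceptions were a start 79601 bp from any peak and the 5'-most start, 1689 bp from the nearest peak, where the sequence is CpG-poor. The CpG class of Foxj3 therefore describes a start without the mark, and the RefSeq start of the gene lay in a window with 42 CpGs.

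Foxm1, which drives genes of mitosis, shares its strongest TSS peak with Rhno1, a DNA repair gene. The peaks lay on both sides of the start, at chr6:128361277-128362933 with a value of 9.329 and at chr6:128363047-128364047 with 11.24. The start itself, at 128362967, was 34 bp from the nearest peak. In the replicates the strongest TSS peak had values of 12.44 and 13.28, and the domain was 3138 and 2790 bp wide. None of the 6 other annotated starts of Foxm1 had a TSS peak. Replicate 1 had its higher value on the upstream side. On signal value Foxm1 ranked 7814th and lay below the median of all marked genes in the replicated list and in replicate 2, but above it in replicate 1, where the median was 12.13.

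**Figure D2:**
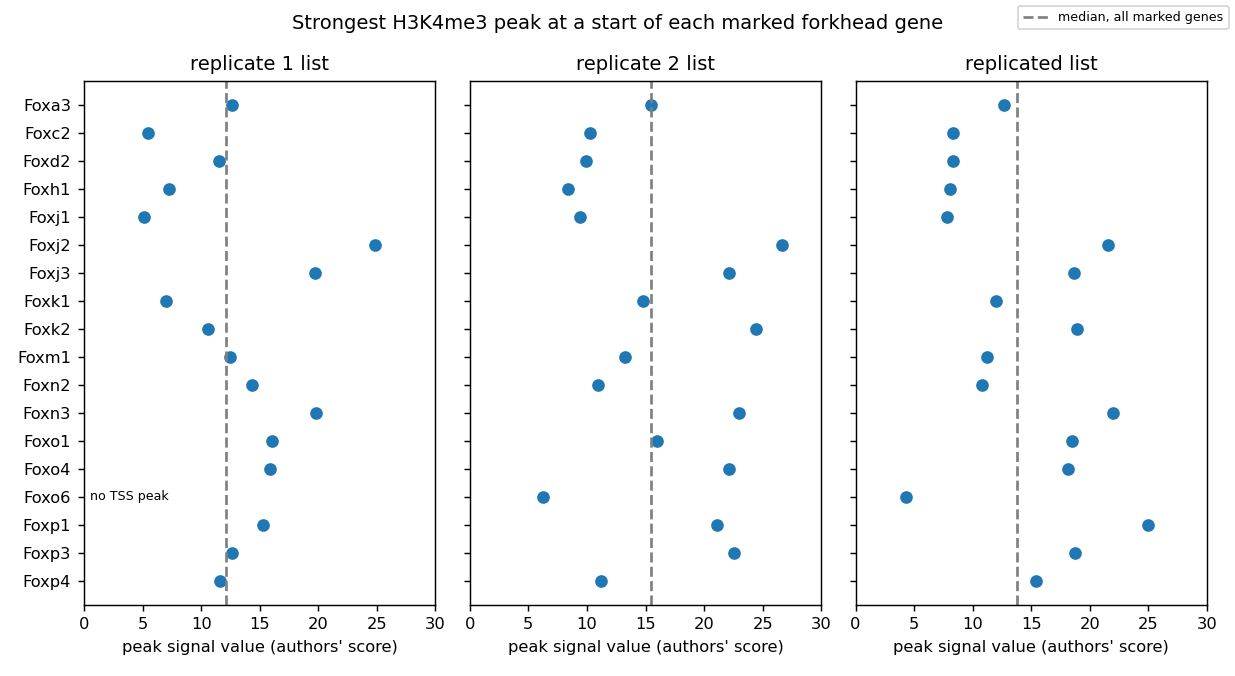
Signal value of the strongest TSS peak (x axis, the authors' score) for the 18 marked forkhead genes (y axis) in the replicate 1, replicate 2 and replicated lists, with the median over all marked protein-coding genes of each list as a dashed line. Foxp1, Foxn3 and Foxj2 lie highest in the replicated list (24.99, 21.95 and 21.56), Foxo6 lies lowest (4.335) and has no TSS peak in replicate 1, and values should be read within a panel only.

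FOXN and FOXP each held marked and unmarked members, and in the replicated list Foxp1 and Foxn3 had the highest signal values of the family. Foxn3, which encodes a repressor first known as a checkpoint suppressor, had its strongest peak at chr12:99561637-99564632 (21.95, rank 763), over the 5'-most starts. A second peak lay at internal starts (chr12:99391561-99393956, 14.78), while the starts in between, the printed one at 99450074 included, were 4145 bp or more from a peak. Its domain of 5379 bp ranked 341st by width, with 5631 bp in replicate 1 and 5328 bp in replicate 2, and signal values of 19.79 and 22.98. The gene held 7 replicated peaks in all, a number that 1.48% of protein-coding genes reached. Foxn2 (chr17:88440727-88443249) had a lower value, 10.78, and a wide domain of 3710 bp, with 3844 and 3691 bp in the replicates. Its signal values there were 14.35, at the 69.6th percentile, and 10.94, at the 19.5th.

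Foxn1, the regulator of the thymic epithelium, and Foxn4, of the retina and spinal cord, had no TSS peak. Foxn1 had 1 replicated peak inside the gene (chr11:78360006-78360698, 10.7), 25860 bp from its start and 12071 bp from the start of Unc119. The nearest replicated peak to Foxn4 was 22930 bp away, although replicate 2 alone listed one at 4988 bp.

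Foxp1, a repressor that acts in blood and many other tissues, had the highest signal value of the family in the replicated list but not in the replicate lists. The replicated peak at chr6:99522786-99524201 had a value of 24.99 and ranked 274th of 11037. Replicate 1 had its strongest TSS peak of the gene at an internal start (chr6:99026290-99028189, 15.3, rank 2583), and replicate 2 had it at chr6:99521051-99522710 (21.1, rank 2030). The gene had 6 TSS peaks, spread over 11 of its 22 annotated starts, and 12 replicated peaks in its body. Its widest domain, 3131 bp, lay at an internal start and not at the 5'-most start. The widest domain was 3162 bp in replicate 1 and 3152 bp in replicate 2. Foxp4 (chr17:47923340-47925943) had a single peak over its start with 15.39, above the median of the replicated list, while its 11.63 and 11.23 in the replicates lay below theirs.

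Foxp2, known for its role in the brain and in vocal learning, was unmarked. Its only replicated peak (chr6:15374777-15375449, 10.2) lay inside the gene, 1240 bp from the nearest of 16 starts, and thus just outside the window. The pooled list held a further narrow peak of 150 bp at chr6:15375561-15375710 with a value of 3.393 and −log10 q of 1.57, at 979 bp, which the replicated list left out. In the replicate lists the nearest peaks were at 1372 and 1214 bp. The 5'-most start of Foxp2, at 14901349, had no replicated peak within 25 kb.

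Foxp3, the factor of regulatory T cells, was called marked, but at a start away from its RefSeq starts. The peak (chrX:7572630-7574249, 18.77, rank 1869) covers the GENCODE start at 7573644 and also lies at the TSSs of Ppp1r3f, a protein-coding gene, and of Flicr, an antisense RNA. The values were 12.64 in replicate 1 and 22.59 in replicate 2. The other 6 starts had no TSS peak. The RefSeq starts, at 7579676 and 7580483, were 4002 and 4809 bp from the nearest replicated peak. Of 5 regulatory T cell markers listed, 1 had a TSS peak, Ikzf2, and Il2ra, Ctla4, Cd3e and Cd4 had none, against 50.3% marked over all protein-coding genes.

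The marked developmental members Foxa3, Foxh1, Foxj1, Foxd2 and Foxc2 had signal values below the median of 13.78 over all marked genes of the replicated list. Foxa3 and Foxh1 also shared the peak with another protein-coding gene, while Foxc2 had a wide domain. Foxa3, an endoderm and liver factor, had a peak of 1220 bp (chr7:19024431-19025650, 12.66) whose edge was 893 bp from the Foxa3 start and whose nearest TSS was that of Sympk, an RNA processing gene. Foxh1, a partner of SMAD proteins in Nodal signalling, had a peak (chr15:76670941-76671477, 8.05) with its edge at 993 bp, nearest to the TSS of Ppp1r16a. In the replicates the top values were 12.67 and 15.49 for Foxa3, with domains of 1015 and 1243 bp, and 7.287 and 8.394 for Foxh1, with domains of 2223 and 2070 bp. These 2 genes lay nearest the inner edge of the window. Both were unmarked with a 500 bp window, and both when each peak was given only to the gene with the nearest TSS. The closest genes outside it were Foxp2 at 1240 bp and Foxl1 at 2241 bp. None of 5 liver and endoderm markers, Alb and Ttr among them, had a TSS peak, where 50.3% of all protein-coding genes did.

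Foxj1, which switches on the genes of motile cilia, had a narrow upstream peak. It was 689 bp wide (chr11:116335495-116336183), had a value of 7.832 and ranked 10010th. Replicate 1 gave a value of 5.11 and a width of 610 bp, and replicate 2 gave 9.45 and 642 bp. The start lay 96 bp from the edge of the peak. Of 5 ciliated cell markers 3 had a TSS peak, where 50.3% of all protein-coding genes did, while Dnah5 and Tekt1 had none.

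Foxd2, a factor of kidney mesenchyme, carried peaks on both sides of its start. The peak inside the gene (chr4:114908525-114908825) was 301 bp wide with a value of 8.36. The upstream peak of 1272 bp (5.926) covered the TSS of Foxd2os, a non-coding RNA. Replicate 1 had its highest TSS value, 11.56, in the upstream part, and replicate 2 had its highest, 9.954, inside the gene. Foxe3, a lens factor 16273 bp away, had no TSS peak.

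Foxc2, a factor of lymphatic vessels and mesenchyme, had the widest domain of the family. The domain, chr8:121115733-121121609, was 5877 bp wide and ranked 221st of 11037, and with Foxn3 it was 1 of 2 members above the 95th percentile of 4864 bp. It covered the whole gene, which is 2725 bp long, and ran past its end. The signal value was low at 8.329 (rank 9806), and the summit lay 5005 bp downstream of the start. The domain was 5853 bp in replicate 1 and 5502 bp in replicate 2. Replicate 1 split it into 3 peaks. The highest of these (18.8) began 1478 bp from the start and so was no TSS peak, which left a top TSS value of 5.481, against 10.29 in replicate 2. Replicate 2 did not overlap the small upstream peak at chr8:121115733-121115975.

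**Figure D3:**
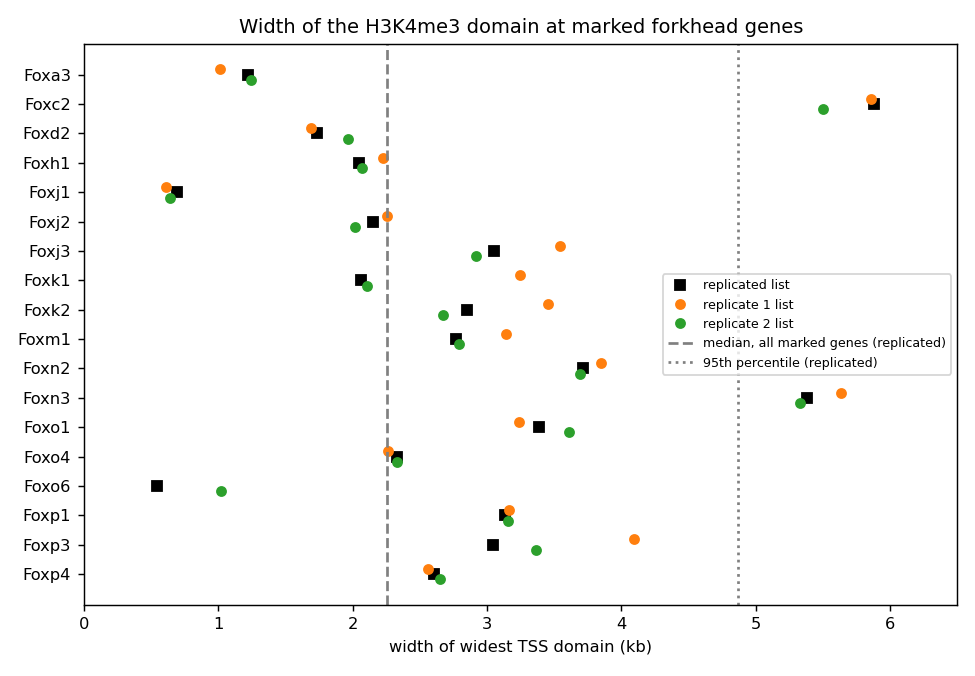
Width in kb of the widest TSS domain (x axis) of the 18 marked forkhead genes (y axis) in the replicated list (squares) and the replicate 1 and 2 lists (circles), with the median (2258 bp, dashed) and 95th percentile (4864 bp, dotted) over all marked genes of the replicated list. Foxc2 and Foxn3 lie beyond the dotted line in all 3 lists, and Foxo6, Foxj1 and Foxa3 are the narrowest.

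Forkhead genes that lie together did not all carry the mark. The genes Foxf1, Foxc2 and Foxl1, all read in the same direction, lie within 46259 bp on chromosome 8, and only Foxc2 had a TSS peak. The cluster held 7 replicated peaks. A pair of them, with values of 12.2 and 8.62, lay at the start of Mthfsd, between Foxf1 and Foxc2, and this was also the nearest replicated signal to Foxf1, 22951 bp from its start. A peak with a value of 12.4 (chr8:121124827-121125699) lay 2241 bp upstream of Foxl1, a factor of gut mesenchyme, and was found in replicate 2 with 14.4 and in replicate 1 as a pair of narrower peaks. Foxl1 was marked with the 2500 bp window. Foxq1, Foxf2 and Foxc1 lie within 256343 bp on chromosome 13. None was marked, and the only replicated peak in that stretch (chr13:31792702-31793690, 9.55) lay 12943 bp upstream of Foxc1.

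**Figure D4:**
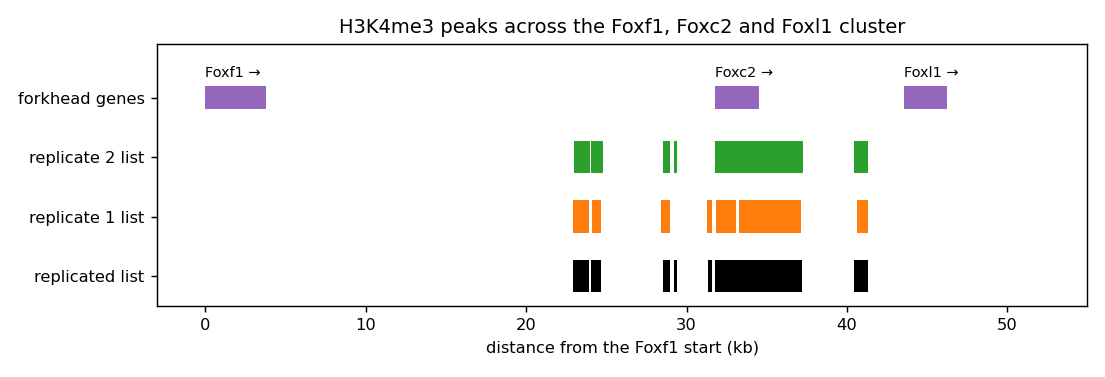
Peaks of the replicated, replicate 1 and replicate 2 lists (rows) against the distance in kb from the start of Foxf1 (x axis), with the 3 forkhead genes above, all read to the right. The block of 5877 bp over Foxc2 stands apart, no peak lies at the start of Foxf1, and the last peak before Foxl1 ends 2241 bp from its start.

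Most unmarked members had no peak near their start. Over the 25 unmarked genes the median distance from a start to the nearest replicated peak was 35967 bp, against 65244 bp over all unmarked protein-coding genes. By this median unmarked members lay nearer to a peak than unmarked genes at large. Within 10 kb were 3 members, Foxp2, Foxl1 and Foxr1, and the share of all unmarked genes at that distance is not given. A further 9 members were more than 100 kb away, where 41.1% of all unmarked genes were. The endoderm pioneer factors stood among the farthest, Foxa2 at 625146 bp and Foxa1 at 264334 bp. Foxr2, Foxq1, Foxb1, Foxf2, Foxi2 and Foxi3 were at 248480, 236568, 227557, 166886, 127119 and 110787 bp.

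For several others the nearest peak lay at the TSS of another gene. Foxd1, of kidney stroma, was 35967 bp from a peak of 15.7 at Btf3, and Foxs1 28750 bp from one of 4.33 near Ttll9. Foxb2 was 91699 bp from a peak near Vps13a and Foxd4 59447 bp from one at Cbwd1. Foxd3, of the neural crest, was 54568 bp from the nearest replicated peak, Foxe1, of the thyroid, 31085 bp, and Foxl2, of the ovary, 24400 bp. Foxe3 was 15756 bp from the Foxd2os peak, and Foxi1, of the inner ear, 12664 bp from a peak of 8.3. Foxr1 had a weak peak in its body (3.22), 5024 bp from a start, which replicate 1 did not list.

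Calls were alike in both replicates. The call was the same for 42 of 43 members, and for 98.6% of all genes. Replicate 1 marked 17 members (50.4% of all genes), replicate 2 marked 18 (50.9%) and the pooled list marked 19 (50.6%). Of the 37 replicated TSS peaks of forkhead genes, 34 were overlapped in both replicate lists. The exceptions were peaks of Foxo6 and Foxp1 absent from replicate 1 and the small upstream peak of Foxc2 absent from replicate 2. The replicated list was itself made from the others, so this describes how peaks were kept. The median share of a TSS peak covered was 95% in replicate 1 and 100% in replicate 2. Replicate 1 split 10 of the 37 peaks into more than 1, and replicate 2 split 0. Shares over the TSS peaks of all genes are not given, so these peak counts cannot be called particular to forkhead genes. Among 17 members with a domain in both lists, 11 domains were wider in replicate 1 and 6 in replicate 2, as for 33% of all genes. The wider domain exceeded the narrower by a median factor of 1.12, against 1.10 over all genes. The largest factor was 1.54, at Foxk1, with 3244 bp in replicate 1 and 2108 bp in replicate 2.

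Strength of the marked members was close to that of other marked genes, and their median domain was wider. The median domain was 2687.5 bp against 2258 bp over all marked genes, and 11 of 18 members were wider than that median. The median signal value was 14.03 against 13.78, and 9 of 18 were above that median in the replicated list. Replicate 1 gave medians of 12.64 against 12.13. The members had the lower median in replicate 2 (15.13 against 15.5) and in the pooled list (12.66 against 13.73). For 5 members a further protein-coding gene had a TSS at the strongest peak, Foxa3, Foxh1, Foxj3, Foxm1 and Foxp3, where 24.1% of all marked genes shared it so. At 4 more it lay at a non-coding TSS, and at 9 at no other TSS.

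The start site often lay in a gap between flanking peaks. At 8 of the 18 marked members (44.4%) the 5'-most TSS was outside every peak but inside a domain, against 29.8% of all marked genes. These were Foxc2, Foxd2, Foxk1, Foxk2, Foxm1, Foxn2, Foxo1 and Foxp1. At 6 members (33.3%) it lay inside a peak, where 55.3% of all marked genes had it. At 4 it lay outside every domain, as it did at 1645 of all 11037 marked genes. The summit of the strongest peak was downstream of the nearest start in 10 members and upstream in 8, so 55.6% were downstream, against 68.6% of all marked genes. The median summit lay 40.5 bp downstream, against 104 bp. It was in an exon in 5 members, in an intron in 4 and outside the gene in 9, and the shares over all marked genes are not given.

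**Figure D5:**
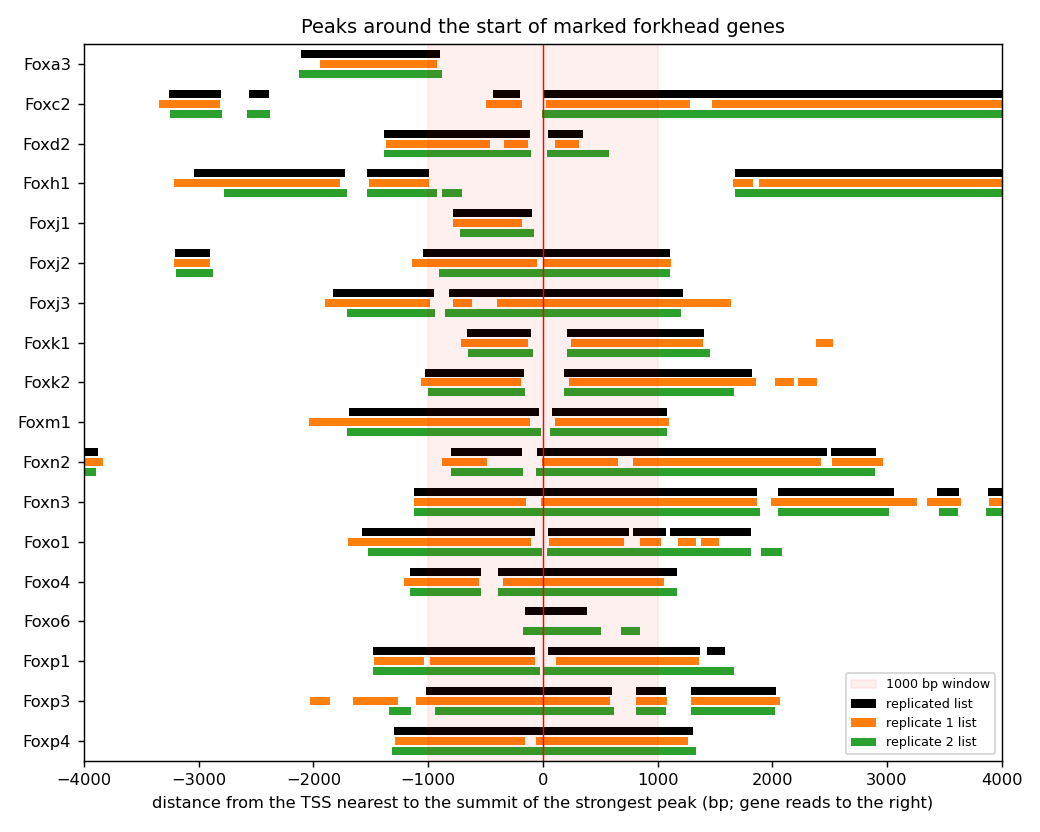
Peaks of the replicated, replicate 1 and replicate 2 lists within 4 kb of the start nearest to the summit of the strongest TSS peak (x axis, distance in bp, each gene read to the right) for the 18 marked forkhead genes (y axis), with the 1000 bp window shaded. Foxk1, Foxk2, Foxm1 and Foxd2 show a gap at the start between flanking peaks, the replicated peaks of Foxa3 and Foxh1 reach only the edge of the window, and Foxo6 has no replicate 1 bar.

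Letters were searched on both strands of the 32 RefSeq promoters of 27 members and of all 32851 promoters. The forkhead motif GTAAACA was in 1 promoter, that of Foxa1 (3.12%, against 3.65% of all). The GATA motif AGATAA was in 1 promoter each of Foxa2 and Foxp3 (6.25%, against 11.2%). The CCAAT box was in 15 (46.9%, against 37.4%), and TTTGAA, the letters of the cell cycle homology region, in 3, of Foxn3, Foxp1 and Foxp3 (9.38%, against 17.9%). No motif's letters contain another's, and a match or its absence describes this window only.

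Genes listed for their work with forkhead factors were mostly marked. Of 17 genes of AKT and FOXO control, 17 were marked, in both replicate lists too, with the widest domain at Ywhaz (8325 bp), a 14-3-3 protein that holds FOXO in the cytoplasm. All 15 genes of FOXM1, the MuvB complex and their mitotic targets were marked, widest at Plk1 (3981 bp), a mitotic kinase, and Lin54 (3850 bp), a MuvB subunit. All 12 partners of FOXK and FOXP were marked, widest at Sin3a (6597 bp), a corepressor scaffold, and Asxl2 (5545 bp). Of 20 FOXO target genes 15 were marked, widest at Txnip (5260 bp) and Ccng2 (4966 bp), and Klf2, Bcl6, Fbxo32, Pck1 and G6pc were not. Pck1 and G6pc encode enzymes of glucose production in the liver. Over all protein-coding genes the share was 50.3%, and over all high-CpG genes it was 79.8%. The lists were chosen with earlier results of these data known, and their promoter classes were not compared. These counts therefore show nothing particular to genes that work with forkhead factors.

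The cell type label was checked against its markers. All 8 erythroid markers, Gata1 and Klf1 among them, were marked in both replicate lists. Of 32 markers of 7 other cell types in which forkhead factors act, 10 were marked. Each count of markers stands beside 50.3% of all protein-coding genes marked under the same rule. Mesenchyme and vessel wall markers, listed for the FOXC, FOXF and FOXS subfamilies, held 3 of 5 (Pdgfra, Pdgfrb and Col1a1, but not Tbx18 and Cdh5). Of the forkhead genes in these subfamilies only Foxc2 was marked. Thymic epithelium markers, of the tissue of Foxn1, held 2 of 4 (Ccl25 and Prss16). Forebrain and neural crest markers, listed for FOXG and FOXD, held 1 of 4 (Neurog2). Foxl2, which is also on the granulosa cell list, and the other 3 genes of that list had no TSS peak in the replicated list. How far cells of other types contributed to single peaks was not tested.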

How the data were processed

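H3K4me3 ChIP-seq peaks were analysed from 2 MEL libraries, with a labelled size range of 150 to 350 bp. Per the deposited notes, the authors drew each replicate list from 1 replicate with a control, the pooled list from both replicates, and the replicated list from the other 3, all on mm10. Neither labels nor notes name the aligner, the peak caller or the rule for replicated peaks, which are thus not given in the sources used here. For each peak the deposited lists hold a signal value, which is the authors' score, a −log10 q by the authors, and the summit. Of the replicate 1 and 2 peaks, 4.69% and 3.72% had q above 0.05. A further list on mm9 was not used here. The files hold no counts, so depth and its precision are unknown.

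Only peaks on the autosomes, X and Y were kept (8 replicated peaks lay elsewhere). A peak counted from 1 bp of overlap with the TSS window. TSSs came from GENCODE M21, on the same build, and promoter sequences from RefSeq. With 1 group there is no comparison of conditions and no test, so values are set beside those of all 21938 protein-coding genes. Members and gene lists were chosen with earlier results of these data known. Each marked member is named, with values per list for the widest, narrowest, strongest and weakest 3 and for members whose call differs between lists. Values of some genes are not reported here. The calling code was checked on simulated peaks. Python 3.11.15, numpy 2.4.6, pandas 2.3.3, numba 0.67.0, pysam 0.24.0 and matplotlib 3.10.9 were used.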

Additional observations from a re-analysis of the deposited data

How the results depend on the processing

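Across the 9 alternatives the count of marked members stayed between 16 and 20, against 18, and with 1 replicate left out it was 17 to 18. Foxa3 and Foxh1 were lost with the 500 bp window or with the closest TSS alone, Foxj3 with the 5'-most TSS and Foxo6 without replicate 2. Foxp2 was gained with 2500 bp or the pooled list, and Foxl1 with 2500 bp. The median domain of 2687.5 bp became 1627 bp with single peaks in place of merged ones (1482 bp over all marked genes). With 1 replicate left out it was 2662 to 3162 bp (2228 to 2409 bp over all marked genes). In the other 4 settings it was 2540 to 2809 bp (2245 to 2329 bp over all marked genes). The replicates gave the same call for 42 members in each of 5 settings. TSS peaks overlapped in both replicate lists went from 91.9% to 59.5% when 90% of the peak had to be covered in each. The cause was not tested. No paired analysis was possible because there is only 1 group. The number of reads is unknown, so weak peaks such as that of Foxo6 may depend on depth.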
